A study of Mus musculus with 6 samples.

Results

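The genes Fos, Fosl1, Jun, Junb, Egr1, Ier2, Ier3, Dusp1, Klf6 and Nr4a1 were followed in cultured mouse hepatic stellate cells, liver pericytes that hold vitamin A and make scar matrix once activated. They were chosen by name as AP-1 subunits and other immediate early genes, and all 10 have a row among the 13341 genes of the deposited table. Cells labelled Nbr1 knock-out (Nbr1KO) were compared with cells labelled wild type (WT), with 3 libraries in each of the 2 groups, described by the labels as biological replicates. Nbr1 encodes a receptor that carries cargo into autophagosomes. Both groups were kept for 4 days in DMEM with 10% fetal bovine serum and received no further treatment. The labels give no strain, age, sex, deletion site or Cre line, and do not say whether the cultures came from separate animals, so p-values measure the spread between these libraries, which may be technical.

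Immediate early genes are transcribed within minutes of a stimulus such as serum, growth factors or stress, without new protein synthesis. Their mRNAs are short-lived, so that in cells growing steadily in serum a level is usually a resting level and not an induced peak. Whether that held for these cultures at harvest was not tested. MAP kinases act on factors already bound at the promoters, SRF with its ternary complex partners and CREB among them, and many of the proteins made are themselves transcription factors. FOS and JUN family proteins pair through leucine zippers to form AP-1, which binds the TRE motif and activates matrix protease genes among others. In stellate cells AP-1 and KLF6 have been studied as part of the early response that turns a quiescent cell into a myofibroblast.

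The promoters of 7 members were found by symbol in a RefSeq table of the build GRCm38.p6, which is older than the GRCm39 named for the files, so positions are those of GRCm38.p6 only. No window was found for Egr1, Fosl1 and Ier2. The 250 bases before the transcription start are shown for Jun and Dusp1, because their libraries did not overlap between the labelled groups, as also those of Egr1. They are shown too for Fos and Nr4a1, which are the low members with the most uneven values. Capitals mark matches, on either strand, to the TRE (TGANTCA), the CRE (TGACGTCA), its core (TGACG), the TRE form of the Jun promoter (TGACATCA) and the TATA motif (TATAA). The windows lie at chr4:95052223-95052472 (minus strand) for Jun, chr17:26508473-26508722 (minus strand) for Dusp1, chr12:85473640-85473889 (plus strand) for Fos and chr15:101266596-101266845 (plus strand) for Nr4a1.
Jun: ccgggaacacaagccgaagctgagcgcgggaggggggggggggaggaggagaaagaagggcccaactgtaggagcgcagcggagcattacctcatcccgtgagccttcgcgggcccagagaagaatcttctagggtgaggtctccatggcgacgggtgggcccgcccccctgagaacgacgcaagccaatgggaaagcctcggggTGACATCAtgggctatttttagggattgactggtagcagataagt
Dusp1: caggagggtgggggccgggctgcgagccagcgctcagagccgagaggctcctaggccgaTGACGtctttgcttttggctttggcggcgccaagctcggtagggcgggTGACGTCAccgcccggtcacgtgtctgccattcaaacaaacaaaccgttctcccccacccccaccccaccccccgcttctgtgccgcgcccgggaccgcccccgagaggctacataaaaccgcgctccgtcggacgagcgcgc
Fos: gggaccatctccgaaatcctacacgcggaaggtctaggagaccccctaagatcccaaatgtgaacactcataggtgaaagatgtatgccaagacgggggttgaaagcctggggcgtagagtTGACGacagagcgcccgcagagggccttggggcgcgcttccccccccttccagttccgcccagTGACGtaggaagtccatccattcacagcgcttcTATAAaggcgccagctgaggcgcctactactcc
Nr4a1: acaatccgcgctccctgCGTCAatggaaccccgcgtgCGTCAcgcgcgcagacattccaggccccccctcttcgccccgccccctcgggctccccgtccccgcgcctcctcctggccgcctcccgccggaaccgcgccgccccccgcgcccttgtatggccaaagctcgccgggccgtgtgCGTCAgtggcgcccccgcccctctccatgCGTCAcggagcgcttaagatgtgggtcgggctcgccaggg

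Jun held TGACATCA between bases -45 and -38 from the start, and Dusp1 held a full CRE between bases -143 and -136 with a further core at -191 to -187. Fos held cores at -129 to -125 and -66 to -62 with TATAA at -33 to -29, and Nr4a1 held 4 such cores, all on the reverse strand. Over all 7 windows, 1 held the full CRE, which 1.62% of 27025 promoter windows of this length hold, and 4 held at least 1 CRE core, which overlaps the full CRE and is in 17.9% of windows. The TGACATCA form, added to the search after the windows were seen, was in Jun and Klf6 and in 3.02% of windows. GC boxes (GGGCGG) were in 6 of the 7 windows and in 32.9% of all. TATAA was in Fos and Ier3 and in 23.5% of windows. The EGR site (GCGNGGGCG), which can overlap a GC box, was in Nr4a1 alone and in 4.65% of windows. Neither TGANTCA (6.87% of windows) nor the CArG box bound by SRF (1.4%) was found in these 7 windows, which says only that those letters are not there.

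**Figure D1:**
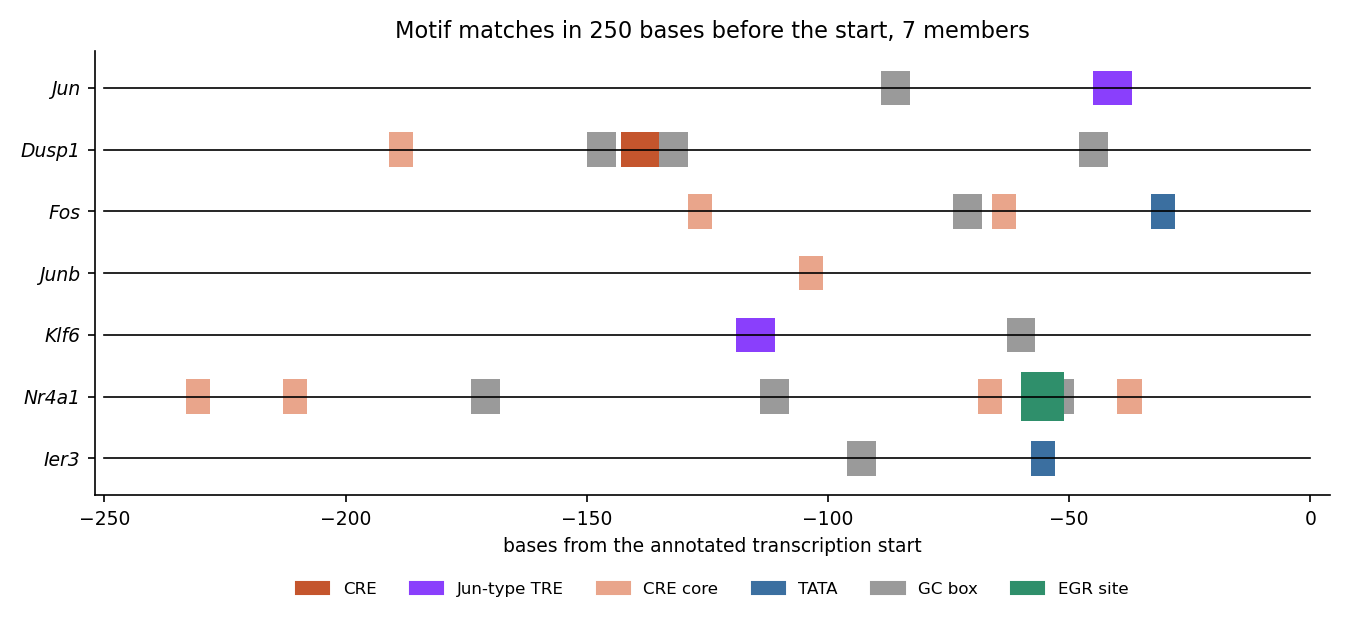
Positions of motif matches in the 250 bases before the annotated transcription start of 7 members, with distance from the start in bases on the x axis and 1 line per gene. Dusp1 carries the full CRE, Jun and Klf6 the TGACATCA form, and Nr4a1 has 4 CRE cores.

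The library kit primes on the poly(A) tail and reads only transcript ends, so a value does not grow with transcript length. Levels of different genes are set side by side on that basis, although the aligner and annotation behind them are not known. Values are normalized counts, in which the authors divided each read count by a factor of its library. Recovered reads came to between 1508518 and 2383879 per library. WT library 1 had the fewest reads and stood apart from the other WT libraries, with r = 0.857 and 0.856 against them over the tested genes, below its r = 0.888 with Nbr1KO library 3. Clustering of the libraries by their deviations from the group means was cut at 2 sets. It put Nbr1KO libraries 1 and 3 with WT library 1, and Nbr1KO library 2 with WT libraries 2 and 3. Such deviations sum to 0 over the 3 libraries of a group, so a split within each group is close to built in. In these deviations Nbr1KO libraries 1 and 3 correlated at only 0.152. Nbr1 had 203.7, 188.2 and 175.6 normalized counts in Nbr1KO libraries 1 to 3 and 204.1, 278.0 and 288.7 in WT libraries 1 to 3 (adjusted p = 0.22), and a 3′ end read does not show a deletion elsewhere in the gene. Sqstm1, which encodes the related receptor p62, averaged 773.7 ± 113.7 normalized counts under the Nbr1KO label and 15.9 ± 7.1 under the WT label (SD, n = 3 each), 48.7-fold apart (limma adjusted p = 0.000338). That level under the WT label is low for a widely expressed gene, so it is in doubt whether the labels give each genotype in full or correctly. Below, Nbr1KO and WT libraries are the libraries so labelled, and every direction rests on those labels. Of 14 stellate cell markers looked up, 8 were in the table, with summed values of 10730 to 11400 under the Nbr1KO label and 4639 to 5611 under the WT label, most of it from Col1a1 and Dcn, while Gfap stayed between 0 and 3.56. The other 6, Des, Lrat, Reln, Hgf, Ngfr and Rgs5, were looked up and were not in the table. Markers of macrophages (2 of 8 in the table) and endothelium (1 of 7) summed to 14.7 or less in every library, and those of hepatocytes (4 of 7) to 48.1 or less. Mesothelial markers (6 of 6) summed to 1141 to 1345 under the Nbr1KO label and 1550 to 1898 under the WT label. Most of that was Gpm6a (771.25 to 846.56 against 913.89 to 1160.34 in the same order). Upk3b, Wt1 and the very low Krt8 were also lower under the Nbr1KO label, and Upk1b overlapped. Msln was higher there (18.99 to 26.25 against 9.24 to 17.25). Portal fibroblast markers (4 of 5) summed to 830.2 to 887.1 against 592 to 888.5 in the same order, mostly from Fbln2 (603.98 to 650.85 against 389.67 to 543). Thy1 (25.35 to 39.16 against 1.68 to 4.0) and Eln (49.85 to 76.94 against 10.67 to 21.83) were also higher under the Nbr1KO label. Cd34 was lower there (111.73 to 144.77 against 157.98 to 330.87). Cholangiocyte markers (4 of 6) summed to 541.3 to 570.8 under the Nbr1KO label and 138.6 to 150.8 under the WT label, but without Sox9 the other 3 summed to 70.5 to 74.8 and 125.1 to 140.1 in the same order, so the higher sum came from Sox9 alone. None of 6 lymphocyte and neutrophil markers was in the table. The part of these other cell types in the members' values was not tested.

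None of the 9 members that passed the filter on low values changed between the labelled groups by limma at an adjusted p under 0.05, where 6.92% of the 10540 tested genes did, a share at which 0 of 9 is no unusual count. At an unadjusted p under 0.05 there were 2, Jun and Egr1, against 22.6% of all tested genes. The other tools, edgeR (7.27% of genes called) and DESeq2 (9.02%), called none of them either. For 3 of the 9, Jun, Egr1 and Dusp1, all Nbr1KO libraries lay above all WT libraries, as did 16.5% of tested genes, and for none did they lie below, as did 13.6%. In either direction the groups lay apart for 30.1% of tested genes, so 3 of 9 is close to the background. The median log2 change of the 9 was -0.03, beside -0.01 over all tested genes. Only genes reaching a normalized count of 10 in 3 or more libraries were tested, which left Fosl1 out.

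**Figure D2:**
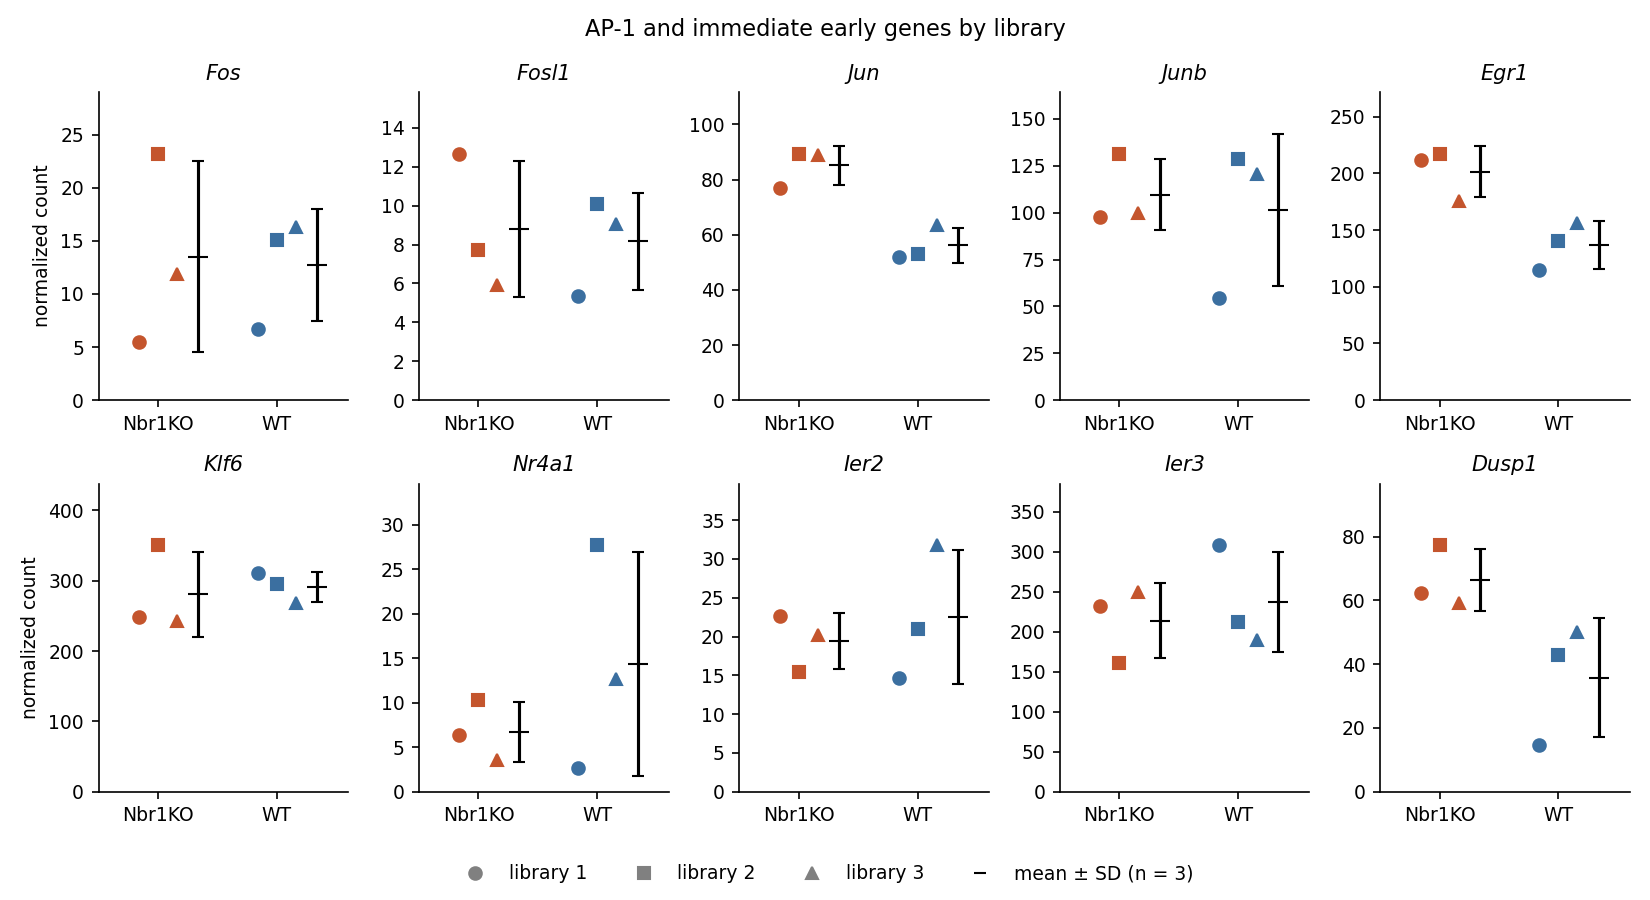
Normalized counts of the 10 members by library, with Nbr1KO libraries left and WT libraries right in each panel, the symbol giving the library number and the bar the mean ± SD (n = 3). Jun, Egr1 and Dusp1 are the panels without overlap, and WT library 1 is the lowest of the 6 in 7 panels.

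Jun encodes c-JUN, the AP-1 subunit that can pair with itself or with FOS proteins, and its own promoter carries a TRE-like element through which it is known to act on itself. Jun had 76.9, 89.4 and 89.0 normalized counts in Nbr1KO libraries 1 to 3, against 52.0, 52.9 and 63.6 in WT libraries 1 to 3. The lowest Nbr1KO library was above the highest WT library, and both groups were tight, with a CV of 8.31% and 11.4%. The mean was 1.51-fold that of WT (85.1 ± 7.07 against 56.2 ± 6.42, SD, n = 3 each), from 264 and 172 reads. The log2 change of 0.59 (SE 0.18, 95% interval 0.17 to 1.02) did not pass after adjustment over all genes (adjusted p = 0.108). With any 1 library left out it lay between 0.54 and 0.68, with adjusted p between 0.0699 and 0.328.

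Junb encodes a JUN protein that activates less strongly than c-JUN and can restrain it. It had 97.8, 131.5 and 99.7 normalized counts in Nbr1KO libraries 1 to 3, against 54.7, 128.5 and 120.8 in WT libraries 1 to 3. The groups overlapped throughout, apart from WT library 1, whose value was below the other 5. The log2 change was 0.20 (SE 0.35, 95% interval -0.63 to 1.02, adjusted p = 0.804), and it was -0.20 without WT library 1 (adjusted p = 0.445).

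Fos encodes c-FOS, which must pair with a JUN protein to bind DNA and whose mRNA is among the least stable known. It was low, with 5.43, 23.2 and 11.9 normalized counts in Nbr1KO libraries 1 to 3, against 6.67, 15.1 and 16.3 in WT libraries 1 to 3. The highest and the lowest library were both Nbr1KO libraries. These values rest on 6, 27 and 10 reads under the Nbr1KO label and 5, 18 and 18 reads under the WT label. By counting error alone, exact 95% Poisson intervals were 1.99 to 11.8 for Nbr1KO library 1 and 15.3 to 33.8 for Nbr1KO library 2, so these replicates differed by more than counting. The log2 change was -0.03 (SE 0.57, 95% interval -1.39 to 1.32, adjusted p = 0.984), an interval that holds more than a 2-fold change in either direction.

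Fosl1 encodes FRA-1, a FOS family protein without the activation domain of c-FOS that is often the main FOS protein of migrating and cancer cells. It was the lowest member, with 12.7, 7.74 and 5.93 normalized counts in Nbr1KO libraries 1 to 3, against 5.34, 10.1 and 9.08 in WT libraries 1 to 3. The groups overlapped, on 28 and 26 reads in all. In a fit with no filter its log2 change was 0.08 (SE 0.40, adjusted p = 0.94), and its counting intervals within each group overlapped.

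Egr1 encodes a zinc finger factor that serum induces through SRF and that switches on its own repressor NAB2. It had 211.8, 217.4 and 175.6 normalized counts in Nbr1KO libraries 1 to 3, against 114.7, 140.2 and 156.2 in WT libraries 1 to 3. All Nbr1KO libraries were above all WT libraries. The mean was 1.47-fold that of WT (201.6 ± 22.7 against 137.0 ± 20.9, SD, n = 3 each), from 635 and 425 reads. The log2 change of 0.56 (SE 0.18, 95% interval 0.13 to 0.98) did not pass (adjusted p = 0.123), and with any 1 library left out it stayed between 0.44 and 0.66 with adjusted p between 0.0776 and 0.398.

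Klf6, a zinc finger gene known to be induced in activated stellate cells, was the most abundant member and stood at the 88.2 percentile of all genes in mean level. It had 248.9, 350.7 and 242.1 normalized counts in Nbr1KO libraries 1 to 3, against 310.9, 294.8 and 268.7 in WT libraries 1 to 3. The WT values lay between those of the Nbr1KO libraries. Its log2 change of -0.07 (SE 0.18) had one of the narrower intervals of the set, -0.51 to 0.36 (adjusted p = 0.863).

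Nr4a1 encodes the orphan nuclear receptor NUR77, which needs no ligand and is controlled by the amount made. It had 6.34, 10.3 and 3.56 normalized counts in Nbr1KO libraries 1 to 3, against 2.67, 27.7 and 12.7 in WT libraries 1 to 3. The WT group held both extremes, and its CV of 87.8% was the largest of any member in either group. WT library 1 rests on 2 reads and WT library 2 on 33, with counting intervals of 0.323 to 9.64 and 19.1 to 38.9 normalized counts that do not meet. The log2 change was -0.64 (SE 0.78, 95% interval -2.49 to 1.20, adjusted p = 0.697). It was near -1.10 with both edgeR and DESeq2 (adjusted p = 0.436 and 0.558) and -0.08 with a term for the library sets (adjusted p = 0.924). In limma it was -1.46 without WT library 1 (adjusted p = 0.0765) and 0.03 without WT library 2 (adjusted p = 0.989).

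Dusp1 encodes MKP-1, a nuclear phosphatase that switches off p38 and JNK and so closes the loop on the kinases that induce it. It had 62.5, 77.4 and 59.3 normalized counts in Nbr1KO libraries 1 to 3, against 14.7, 42.8 and 49.9 in WT libraries 1 to 3. All Nbr1KO libraries were above all WT libraries, and WT library 1 was far below both others of its group, with a counting interval of 7.33 to 26.3 against 31.9 to 56.3 for WT library 2. The mean was 1.85-fold that of WT (66.4 ± 9.63 against 35.8 ± 18.7, SD, n = 3 each), from 209 and 117 reads. The log2 change was 1.03 (SE 0.45, 95% interval -0.04 to 2.11, adjusted p = 0.239). Without WT library 1 it was 0.50 (adjusted p = 0.112).

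Ier2 and Ier3 encode small fast response proteins, IER2 a nuclear one and IER3 (IEX-1) one that acts on cell survival and ERK signalling. Ier2 had 22.6, 15.5 and 20.2 normalized counts in Nbr1KO libraries 1 to 3, against 14.7, 21.0 and 31.8 in WT libraries 1 to 3. Ier3 had 231.7, 160.7 and 249.2 in Nbr1KO libraries 1 to 3, against 308.2, 212.5 and 189.8 in WT libraries 1 to 3. Both overlapped, and in Ier3 WT library 1 was the highest of the 6. The log2 change was -0.15 for Ier2 (SE 0.34, 95% interval -0.96 to 0.66, adjusted p = 0.846). For Ier3 it was -0.14 (SE 0.25, 95% interval -0.74 to 0.46, adjusted p = 0.806).

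In order of mean level over the libraries the members ran Klf6, Ier3, Egr1, Junb, Jun, Dusp1, Ier2, Fos, Nr4a1 and Fosl1, from the 88.2 to the 19.9 percentile of all genes. The ranges over the 6 libraries overlapped for all 9 pairs of neighbours in this order, but the order within a library was tighter. Egr1 was above Junb, Junb above Jun and Jun above Dusp1 in all 6 libraries, and the other 6 pairs kept their order in 3 to 5 of the 6. Klf6, Ier3 and Egr1 were the abundant members, and the genes of both FOS proteins were in the lower part of the measured range.

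WT library 1 was the lowest of the 6 libraries for 7 of the 10 members, all but Fos, Ier3 and Klf6. It was the lowest for 29.4% and the highest for 28.9% of all tested genes, more than any other library in either direction. Nbr1KO library 2 was the highest for 6 members, namely Fos, Jun, Junb, Egr1, Dusp1 and Klf6, and for 14.4% of all tested genes. The residual SD on the log2 scale was above the median of all tested genes (0.324) for 6 of the 9 tested members, and a median leaves as many genes above it as below. Of the 8 tested heat shock genes, which cell handling also induces, 2 had the same lowest and highest library, the near-identical copies Hspa1a and Hspa1b. The order was the opposite in Hsph1, and Dnajb1, Hspb1, Hsp90aa1, Bag3 and Hspa8 had other lowest libraries. Hspa1b had 100.5, 184.8 and 54.6 normalized counts in Nbr1KO libraries 1 to 3, against 9.34, 79.8 and 78.1 in WT libraries 1 to 3. WT library 1 also had the lowest depth. The part of handling, depth or the library sets in the members' values was not tested.

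Within the library sets the differences of Jun, Egr1 and Dusp1 keep their sign by construction, since their groups do not overlap, and only the sizes add something. Jun was 0.66 higher on the log2 scale in Nbr1KO libraries 1 and 3 than in WT library 1, and 0.62 higher in Nbr1KO library 2 than in WT libraries 2 and 3. Egr1 was 0.74 and 0.55 higher in the same pair of comparisons, and Dusp1 1.98 and 0.73. Jun was thus nearly the same in both sets, and Dusp1 was not. Fos, close to 0 over all libraries, was 0.25 and 0.53 higher within the sets, while Ier2 (0.51 and -0.71), Klf6 (-0.34 and 0.32) and Nr4a1 (0.66 and -0.81) pointed opposite ways. Each set leaves 1 library in one group, so none of these has a test. With a term for the sets in the fit, Dusp1 (log2 change 1.36, adjusted p = 0.00727), Egr1 (0.65, adjusted p = 0.00852) and Jun (0.64, adjusted p = 0.022) passed, 3 of 9 members, but so did 26.5% of all tested genes, and the sets were drawn from these same libraries.

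**Figure D3:**
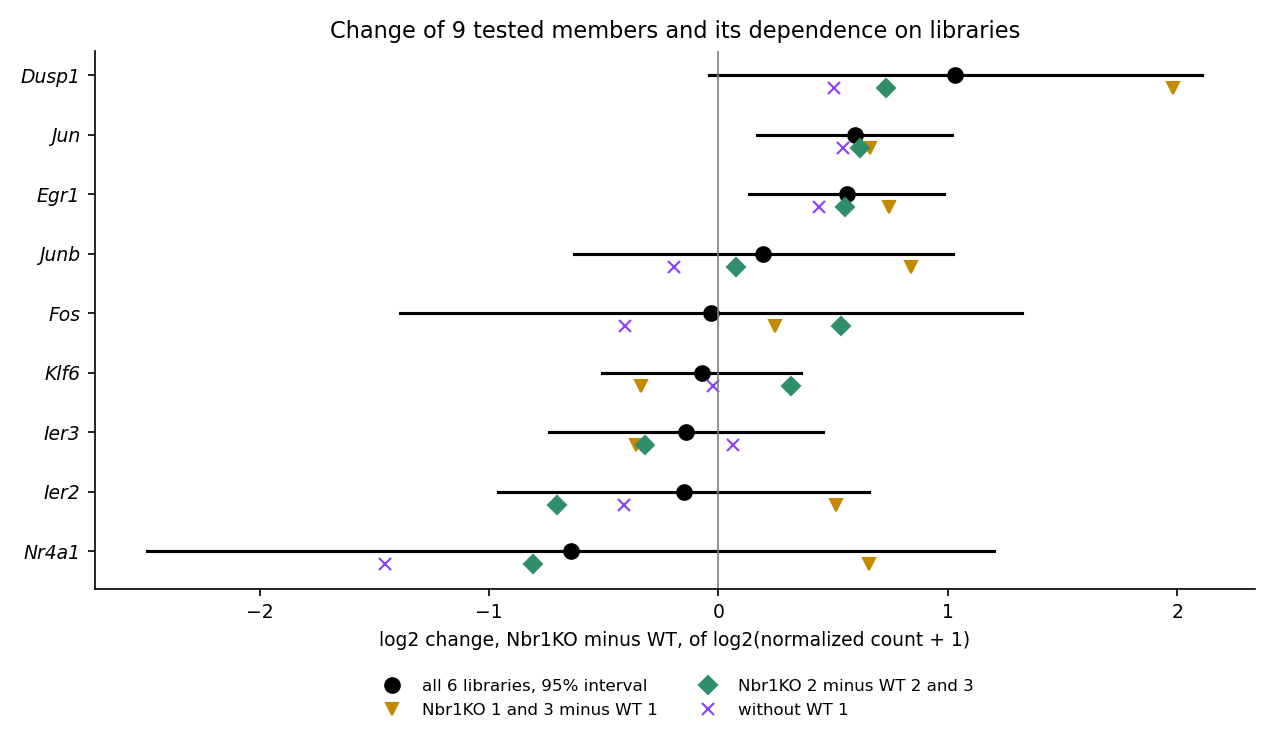
Log2 change (Nbr1KO minus WT) of the 9 tested members over all 6 libraries with its 95% interval (black), within each library set (triangles and diamonds) and without WT library 1 (crosses). Jun and Egr1 lie between 0.44 and 0.74 in every version, whereas Nr4a1 ranges from -1.46 to 0.66.

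Among 9 tested genes of the other AP-1 and related bZIP subunits, 0 changed by limma or edgeR, beside the 6.92% of all tested genes called by limma, and 3 had an unadjusted p under 0.05, beside 22.6%. DESeq2 called 1, Jdp2, which encodes a repressor that pairs with JUN. Jdp2 had 425.5, 261.3 and 396.3 normalized counts in Nbr1KO libraries 1 to 3, against 222.8, 94.1 and 73.5 in WT libraries 1 to 3. The groups lay apart (2.77-fold, log2 change 1.60, SE 0.42, limma adjusted p = 0.0758, DESeq2 adjusted p = 0.0183), and limma called it without WT library 1 (adjusted p = 0.0018) and with the set term (0.00132). Jund, the JUN gene that is expressed without a stimulus, had 430.9, 288.8 and 467.5 in Nbr1KO libraries 1 to 3, against 369.6, 114.2 and 132.6 in WT libraries 1 to 3. Here WT library 1 was near the Nbr1KO values and the groups overlapped (log2 change 1.12, SE 0.45, adjusted p = 0.205, and 0.00347 without WT library 1). The small MAF gene Mafg (log2 change -0.46, adjusted p = 0.139) and the large MAF gene Maf (-0.45, adjusted p = 0.402) did not pass either, and of the fits with 1 library left out only that without WT library 1 called them (adjusted p = 0.0256 and 0.0076). By limma with the set term 3 of the 9 passed, Jdp2, Jund (adjusted p = 0.0199) and Mafg (0.0372), beside 26.5% of all. The median log2 change of these 9 was 0.05.

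Fast response genes outside the 10 members did include genes that changed. Of 32 tested, 5 rose, where 4.67% of all tested genes did, and 1 fell, where 2.25% did, with a median log2 change of 0.20. With the set term 15 of the 32 passed, beside 26.5% of all. The list was chosen with earlier results of these data known, so these counts are descriptive only. Klf2, a zinc finger factor gene known as a target of MEK5 and ERK5 signalling in endothelium, rose to 228.1, 195.1 and 230.2 normalized counts in Nbr1KO libraries 1 to 3, against 57.4, 38.6 and 39.0 in WT libraries 1 to 3 (4.84-fold, log2 change 2.27, SE 0.21, adjusted p = 0.00186). Phlda1, which encodes a pleckstrin homology protein, rose to 475.2, 440.9 and 465.1, against 108.1, 140.2 and 148.0 (3.48-fold, log2 change 1.81, SE 0.16, adjusted p = 0.00178). In both genes the 2 groups are far apart beside the spread within each. WT library 1 was the highest WT library in Klf2 and the lowest in Phlda1. Both passed with each library left out in turn (adjusted p up to 0.0235 and 0.0228).

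The other 3 that rose are Sgk1, Rhob and Klf4. Sgk1, a serum- and glucocorticoid-induced kinase gene, averaged 120.4 ± 6.66 normalized counts under the Nbr1KO label and 47.3 ± 7.70 under the WT label (SD, n = 3 each, adjusted p = 0.00944). Rhob, a small GTPase gene whose product turns over fast, averaged 159.8 ± 13.2 and 61.4 ± 13.3 in the same order (adjusted p = 0.0113). Klf4, a zinc finger factor gene, averaged 492.9 ± 53.9 and 204.4 ± 68.2 (adjusted p = 0.0233). Btg2, an antiproliferative gene and p53 target, fell to 99.9 ± 21.4 under the Nbr1KO label, against 195.9 ± 27.5 under the WT label (adjusted p = 0.0411). With 1 library left out the log2 changes kept their size, at 1.21 to 1.44 for Sgk1 (1.34 over all 6 libraries), 1.22 to 1.54 for Rhob (1.38), 1.16 to 1.57 for Klf4 (1.31) and -1.13 to -0.81 for Btg2 (-0.98), while in these smaller fits the adjusted p did not always pass. The call of Sgk1 was lost without Nbr1KO library 1 or 3 (adjusted p up to 0.0706), and that of Rhob without any Nbr1KO library (up to 0.0715). Those of Klf4 and Btg2 were lost whichever library but WT library 1 was left out (up to 0.117 and 0.174). That of Btg2 was also lost by limma without a variance trend (adjusted p = 0.053).

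**Figure D4:**
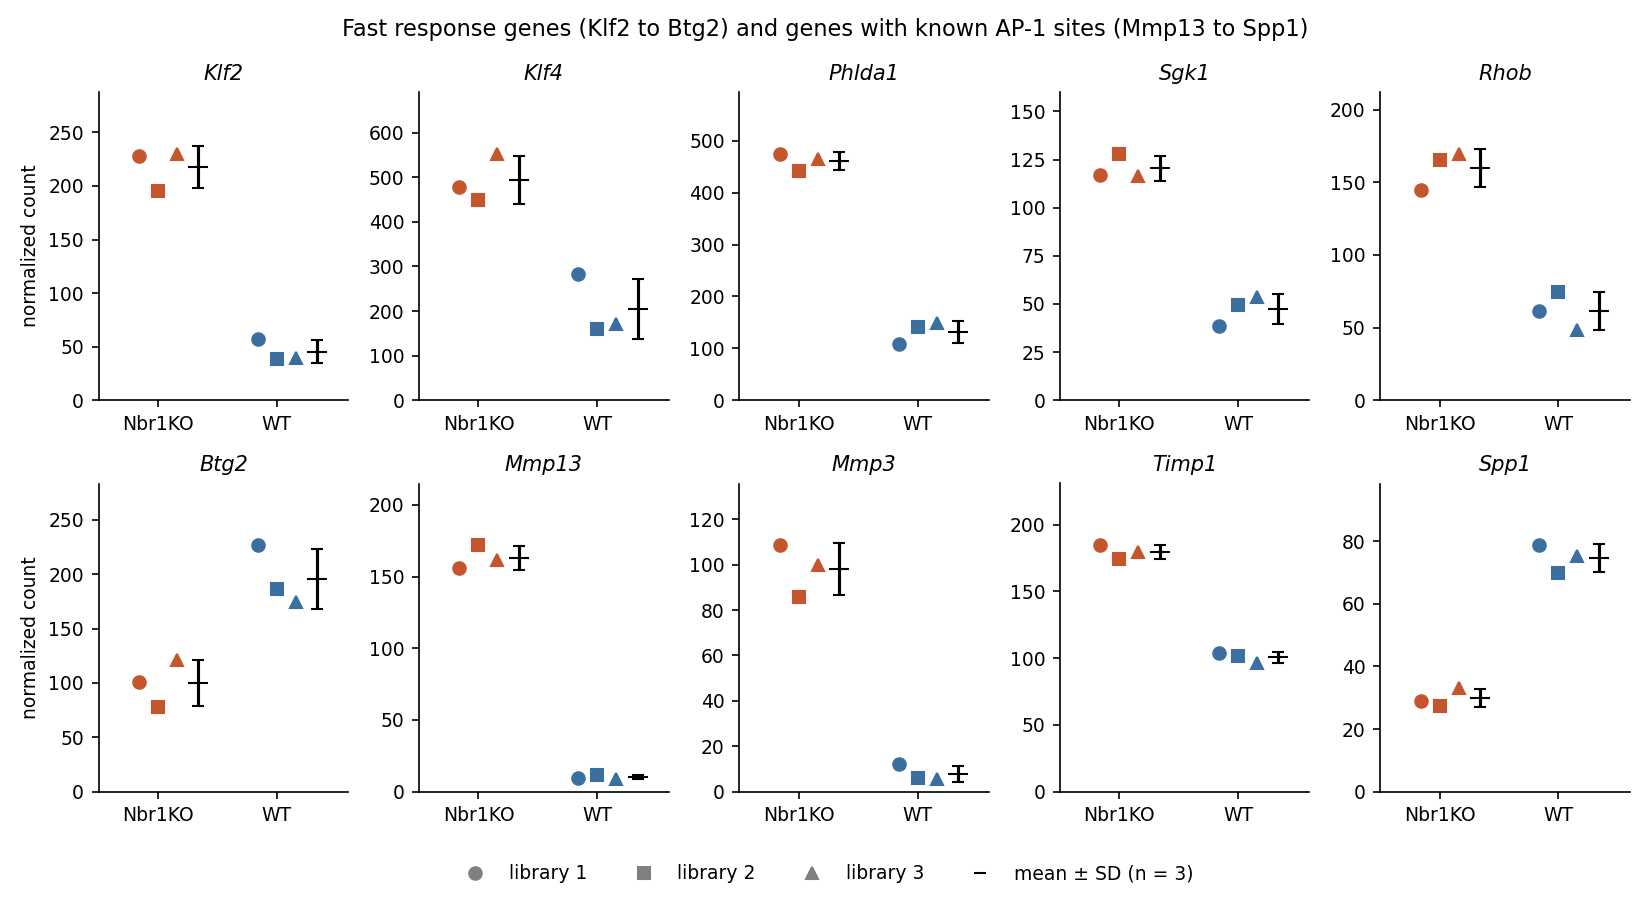
Normalized counts by library of 6 fast response genes outside the member list and 4 genes with known AP-1 sites, Nbr1KO left and WT right, with mean ± SD (n = 3). Klf2 lies at 195.1 to 230.2 in Nbr1KO and 38.6 to 57.4 in WT libraries, and Mmp13 at 155.7 to 171.9 and 9.08 to 11.8.

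Of 16 tested ERK feedback genes and MAP kinase phosphatases, 0 changed by limma, edgeR or DESeq2, 3 had an unadjusted p under 0.05 and the median log2 change was 0.20. Against the 6.92% and 22.6% of all tested genes these counts are close to the background. With the set term 3 of the 16 passed, beside 26.5% of all. Nab1, which encodes a corepressor of EGR1, had 449.0, 409.1 and 447.3 normalized counts in Nbr1KO libraries 1 to 3, against 340.2, 311.6 and 322.3 in WT libraries 1 to 3. These groups did not overlap, with a small log2 change of 0.42 (SE 0.12, adjusted p = 0.097, and 0.0308 without WT library 1). Dusp8, a JNK and p38 phosphatase gene, was low (13.7 ± 2.88 against 5.41 ± 1.24, adjusted p = 0.0845, and 0.0352 by limma without a variance trend). The ETS factor gene Etv5 had a log2 change of 1.53 (adjusted p = 0.173, and 0.0356 without WT library 1), and Spred1, an inhibitor of RAS to ERK signalling, one of 0.35 (adjusted p = 0.29).

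Of 30 tested genes for MAP kinase pathway proteins and promoter-bound factors, 0 changed by any of the 3 tools, 6 had an unadjusted p under 0.05 and the median log2 change was -0.03, again beside 6.92% and 22.6% of all tested genes. With the set term 8 of the 30 passed, beside 26.5% of all. Mrtfa and Mrtfb encode coactivators that bring actin signals to SRF. Mrtfa averaged 77.0 ± 13.2 normalized counts in Nbr1KO libraries and 48.6 ± 2.87 in WT libraries (adjusted p = 0.113), and Mrtfb had a log2 change of 0.54 (SE 0.16, adjusted p = 0.102, and 0.0332 without WT library 1). The kinase gene Braf averaged 103.1 ± 10.2 and 167.3 ± 34.4 (adjusted p = 0.095), and Rps6ka5, whose product MSK1 phosphorylates CREB and histone H3 at immediate early genes, 60.6 ± 6.30 and 38.6 ± 5.96 (adjusted p = 0.126). Their groups lay apart in each case, and none passed over all 6 libraries without the set term.

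Of 15 tested genes with AP-1 sites known from other work, 3 rose, where 4.67% of all tested genes did, and 1 fell, where 2.25% did, with a median log2 change of 0.23. With the set term 7 of the 15 passed, beside 26.5% of all. This list too was chosen with earlier results of these data known, so its counts are descriptive only. The collagenase gene Mmp13, a classical AP-1 target, had 155.7, 171.9 and 161.4 normalized counts in Nbr1KO libraries 1 to 3, against 9.34, 11.8 and 9.08 in WT libraries 1 to 3 (16.2-fold, log2 change 3.90, SE 0.20, adjusted p = 0.000338). Mmp3, the stromelysin gene in whose promoter a TRE was studied early, had 108.6, 86.0 and 99.7 against 12.0, 5.88 and 5.45 (12.6-fold, adjusted p = 0.0018). Among the AP-1 genes named here the ratio in the same libraries was 1.51 for Jun, 1.08 for Junb and 1.93 for Jund. It was 1.06 for Fos, 1.07 for Fosl1 on few reads, and 2.77 for Jdp2. These mRNA levels do not measure AP-1 activity, and its part in the protease values was not tested. Both protease genes passed with each library left out (adjusted p up to 0.00765 and 0.0219). The protease inhibitor gene Timp1 rose 1.78-fold (179.4 ± 5.10 against 100.6 ± 4.00, adjusted p = 0.0168), with a log2 change of 0.83 that stayed between 0.80 and 0.85 with 1 library left out. In those fits its call was lost whichever library but WT library 1 was left out (adjusted p up to 0.12). Spp1, which encodes osteopontin, fell to 29.9 ± 2.97 under the Nbr1KO label, against 74.6 ± 4.55 under the WT label (adjusted p = 0.0101), with a log2 change of -1.29 that stayed between -1.37 and -1.24 with 1 library left out. In those fits its call was lost without Nbr1KO library 1 or WT library 3 (adjusted p up to 0.0749). Spp1 is also in the cholangiocyte marker list.

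Heat shock genes were looked at beside the members because both respond to handling. Of 8 tested, 1 rose and 0 fell, beside 4.67% and 2.25% of all tested genes, with a median log2 change of 0.33. The gene that rose, Hspa1a, had 19.0, 26.6 and 17.8 normalized counts in Nbr1KO libraries 1 to 3, against 0, 2.52 and 2.72 in WT libraries 1 to 3 (log2 change 3.21, adjusted p = 0.0214). With 1 library left out its log2 change lay between 2.59 and 3.54, and its call was lost without WT library 2 or any Nbr1KO library (adjusted p up to 0.105). Hspa1a and Hspa1b are nearly identical copies, so how their reads were divided is uncertain. Hspb1 (log2 change 0.61, adjusted p = 0.0738), Dnajb1 (0.41, adjusted p = 0.469) and Hspa1b (1.33, adjusted p = 0.43) did not pass. Hspb1 and Dnajb1 did without WT library 1 (adjusted p = 0.0399 and 0.0439). By limma with the set term 3 of the 8 passed, beside 26.5% of all. These were Hspa1a, Hspa1b (log2 change 2.04, adjusted p = 0.00354) and Hspb1 (adjusted p = 0.0166).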

How the data were processed

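Single-end reads of 75 nucleotides from 6 libraries, each made from 200 ng of total RNA with the QuantSeq 3′ forward kit, underlie the table, per the labels' protocols. The submitters' processing notes name DESeq2 and the build GRCm39. For aligner, annotation, strand setting and molecular identifiers the sources used here give nothing. The authors deposited a signal, read counts scaled by a factor per library. Dividing by what 1 read is worth gave whole numbers (within 0.01) for 100% of values in every library, and no gene had fewer than 9 reads in all. Poisson intervals of normalized counts, also called counting intervals here, cover counting error only. Intervals on changes between the labelled groups come from the limma fit and rest on the spread between libraries.

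Genes that reached a value of 10 in 3 or more libraries entered limma 3.58.1 (R 4.3.3, variance trend, two-sided) on log2(value + 1), group as the only term, with Benjamini-Hochberg adjustment at 0.05 over all tested genes. Log2 changes are on that scale, which understates changes of low genes. Fold changes are ratios of group means. The limma fit, the quasi-likelihood test of edgeR 4.0.16 with TMM factors, and DESeq2 1.42.0 were checked on simulated data; on the recovered reads edgeR called 766 genes and DESeq2 951. Members, the 6 related lists, the 8 marker lists and the library sets were chosen with earlier results of these data known. Named genes are all members, Nbr1 and Sqstm1, the 4 smallest p of each list and any gene behind a count of 5 or fewer. Motifs were matched by letters on both strands. Alternatives were other pseudocounts, filters, scalings and tools, a replicate block, a library set term and each library left out.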

Additional observations from a re-analysis of the deposited data

How the results depend on the processing

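The count of changed genes over the whole table, 729, was 380 with a mean value of at least 50, 476 with the replicate block, 2791 with a term for the library sets and 200 to 2228 with 1 library left out, the highest without WT library 1 and the lowest without Nbr1KO library 1. The member count of 0 became 3 with the set term and was 0 in each other alternative. Of 110 tested genes over the 6 related lists 11 changed, beside 6.92% of all tested genes. This count became 39 with the set term, beside 26.5% of all. It was 4 to 29 with 1 library left out, again most without WT library 1. With the set term Jun (0.64), Egr1 (0.65) and Dusp1 (1.36) passed. The sign of Fos, at -0.03, turned with edgeR (0.0723), DESeq2 (0.0686) and the set term (0.39), and Fos ranged from -0.50 to 0.45 with 1 library left out. In the same way Junb ranged from -0.20 to 0.41, Ier2 from -0.41 to 0.12, Ier3 from -0.283 to 0.0655, Klf6 from -0.244 to 0.0222 and Nr4a1 from -1.46 to 0.0285. Within Nbr1KO libraries 1 and 3 and WT library 1, differences moved to 0.84 for Junb, 0.51 for Ier2, 1.98 for Dusp1, -0.34 for Klf6 and 0.66 for Nr4a1. Within Nbr1KO library 2 and WT libraries 2 and 3 they moved to -0.71 for Ier2 and 0.32 for Klf6. These within-set values were added after seeing the data. Some of these fits also held fewer genes or libraries, and the cause of the shifts was not tested.

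Whether the replicate numbers pair the libraries could not be decided, because deviations within a group balance each other. Deviations from the group means correlated at 0.446 and 0.7 for numbers 1 and 2 and at -0.624 for number 3, and Nbr1KO library 3 correlated best with WT library 1. With the replicate block no member passed (adjusted p = 0.183 for Jun). Of the other genes named, Jdp2 passed with it (adjusted p = 0.0437), and Btg2 (0.0718) and Timp1 (0.0647) did not. Fos, Fosl1 and Nr4a1 rest on 22 to 49 reads per group, and replicates of Fos and Nr4a1 also differed by more than counting error.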
